A study of Homo sapiens with 4 samples.

Results

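ATP-binding cassette (ABC) transporters were described as a family in human lung squamous cell carcinoma cells, in libraries labelled by radiation dose. The members were the protein-coding genes of the deposited table whose symbol is ABC, a subfamily letter from A to G and a number, which gave 45 of 58735 genes. This rule used names and biotype only and no measured value, but it was set with earlier results of these data known. A further 16 rows with related symbols are pseudogenes or antisense transcripts and were left out. The library names give a radiation dose in gray (Gy), either 0 Gy or 30 Gy, with replicates 1 and 2 at each dose and 4 libraries in all. The design text names SK-MES-1 and SK-MES-1-RR, the latter resistant to radiotherapy. Which library came from which of them, how the dose was split and when cells were harvested are not in the labels. A difference between the doses and one between SK-MES-1 and SK-MES-1-RR therefore cannot be told apart. No other treatment, allele or transgene is recorded for either group. Nothing in the labels says that replicates were separate cultures, so p-values measure the spread between these libraries, which may be technical.

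ABC proteins share a cassette that binds and splits ATP, and most couple it to the movement of a substrate across a membrane. Subfamily A moves mainly lipids, B holds drug and peptide pumps together with mitochondrial transporters, C exports organic anions and glutathione conjugates and also includes channel regulators, D works in peroxisomes and lysosomes, and G handles sterols and drugs. Subfamilies E and F have the cassette but no membrane part and act in translation. In tumour cells the family is best known for multidrug resistance, in which ABCB1, ABCC1 and ABCG2 pump drugs out of the cell.

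Compared with 0 Gy, the 30 Gy libraries had higher levels of the cholesterol exporters ABCA1 and ABCG1 and of the mitochondrial transporters ABCB10 and ABCB8, and lower levels of the conjugate exporters ABCC1 and ABCC3. These 6 genes were among the 7 members that passed the test (limma on log2(FPKM + 1), adjusted p under 0.05 over all genes tested). FPKM, a fragment count scaled to gene length and sequencing depth, is a level per length and so allows levels to be compared between genes. Of the 45 members, 24 reached an FPKM of 1 in at least 2 libraries and were tested, and 21 did not. Of the 24, 4 rose and 3 fell, or 29.2%, against 19.8% of all 13379 genes tested (10.8% higher and 9.06% lower at 30 Gy). FPKM values of the 2 doses did not overlap in 14 of the 24 (58.3%), against 65.2% of all tested genes. The median log2 change of the 24 was -0.05, against -0.0007 over all tested genes. Without either 0 Gy library 0 of the 24 passed limma (7 in each case at an unadjusted p under 0.05, against 8 with all libraries), and without either 30 Gy library only ABCC1 and ABCC3 did.

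Read totals recovered from the FPKM values were 15920861 to 17261121 per library. Of 7 squamous lineage markers, KRT5, KRT6A and DSG3 had 0 reads in all 4 libraries, and 2 were tested. SOX2, under the filter, was higher at 30 Gy without overlap, with 11 and 4 reads at 0 Gy and 22 and 19 at 30 Gy. KRT14 had 0 to 4 reads. TP63 had 3.95 and 4.14 FPKM at 0 Gy and 3.34 and 3.19 at 30 Gy, and PKP1 had 17.6 and 18.3, then 16.2 and 14.8. Neither passed limma, although both were lower without overlap, had an unadjusted p under 0.05 and passed with voom (adjusted p = 0.0424 and 0.0405). Of 6 epithelial markers KRT7 rose and KRT19 fell, and the 6 summed to 332 to 344 FPKM at 0 Gy and 368 to 402 at 30 Gy, nearly all of it keratins. KRT8 and KRT18 were higher without overlap and did not pass limma (adjusted p = 0.362 and 0.344). EPCAM was lower without overlap, at 5.91 and 3.83 FPKM, then 3.48 and 3.42, and did not pass either (adjusted p = 0.199). CDH1 had 2 and 7 reads at 0 Gy and 0 and 0 at 30 Gy. The 6 fibroblast markers summed to 62.8 to 63.2 FPKM at 0 Gy and 72.6 to 78.7 at 30 Gy, nearly all of it COL1A1. DCN was at 0 reads throughout and COL1A2 at no more than 0.00563 FPKM, while PDGFRB had 0.652 and 0.717 FPKM at 0 Gy and 1.46 and 1.51 at 30 Gy. LUM, under the filter, had 1 and 5 reads at 0 Gy and 43 and 63 at 30 Gy. It passed voom on genes with 10 or more reads in 2 or more libraries (adjusted p = 0.000383). However, LUM met that minimum only through the 30 Gy libraries, where it is high, so nothing is drawn from this pass. PDGFRA had 13 and 5, then 13 and 30 reads, and did not pass that voom fit (adjusted p = 0.143), nor did SOX2 (0.0653). Of the 2 tested fibroblast markers, COL1A1 and PDGFRB, 0 passed limma, although both had an unadjusted p under 0.05 and both passed with voom. PDGFRB reached FPKM 1 only at 30 Gy, where it is high, so nothing is drawn from its p-values. Leukocyte, endothelial, alveolar type II and hepatocyte markers each summed to at most 0.715 FPKM in any library. The part of these marker levels in the results below was not tested. In bulk RNA, fewer cells with a transcript and less transcript per cell cannot be told apart.

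The sequences just upstream of ABCA1, ABCB10 and ABCB8 are shown because these genes rose and have an entry in the RefSeq promoter table (GRCh38.p14), which held 53 windows for 35 of the 45 members. ABCC1, ABCC3 and ABCG1 have none there. Each window runs from 250 bases before a RefSeq start to 50 after it, and only the bases before both that start and the deposited start of the gene are printed, 5′ to 3′ on the strand of the gene. The stretches are chr9:104928238-104928405 (minus strand, ABCA1), chr1:229558708-229558957 (minus strand, ABCB10) and chr7:151028200-151028421 (plus strand, ABCB8). Capitals mark matches on either strand to any of 6 motifs. The GC box was searched as GGGCGG and the E-box as CACGTG. The core of the antioxidant response element was searched as TGACNNNGC. The half-site of nuclear receptors such as LXR was taken to be AGGTCA. The core of the xenobiotic response element was GCGTG, and the TATA box was searched for with the letters TATAAA.
ABCA1: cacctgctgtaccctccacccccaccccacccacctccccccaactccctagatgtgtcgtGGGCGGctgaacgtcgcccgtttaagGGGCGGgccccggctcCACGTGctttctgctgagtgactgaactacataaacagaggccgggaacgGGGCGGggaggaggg
ABCB10: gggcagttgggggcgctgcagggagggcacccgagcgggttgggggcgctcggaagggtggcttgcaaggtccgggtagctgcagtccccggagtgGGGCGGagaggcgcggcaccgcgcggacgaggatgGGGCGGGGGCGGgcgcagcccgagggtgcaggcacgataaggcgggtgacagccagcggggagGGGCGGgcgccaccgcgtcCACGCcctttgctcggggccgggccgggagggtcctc
ABCB8: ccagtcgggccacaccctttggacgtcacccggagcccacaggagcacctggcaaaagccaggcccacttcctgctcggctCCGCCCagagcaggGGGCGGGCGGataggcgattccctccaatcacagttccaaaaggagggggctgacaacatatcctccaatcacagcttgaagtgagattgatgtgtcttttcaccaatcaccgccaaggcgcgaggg

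The ABCA1 stretch holds 3 GC boxes and 1 E-box, the ABCB10 stretch 4 GC boxes and 1 xenobiotic core, and the ABCB8 stretch 3 GC boxes. A pair of the GC boxes abut in ABCB10, and a pair overlap in ABCB8. None of the printed stretches holds the antioxidant core, the half-site or the TATA box in these letters. The whole windows also include bases that are not printed. Counted over the whole window, ABCA1 has 1 TATA box, ABCB10 has 2 xenobiotic cores and ABCB8 has 4 GC boxes. Of 35116 windows of 300 bases in the table, 45.0% hold a GC box, 7.26% an E-box, 36.5% the xenobiotic core, 13.3% the antioxidant core, 13.8% the half-site and 11.5% a TATA box. Of the 53 windows of the members, some of which overlap, the shares were 47.2%, 17.0%, 43.4%, 22.6%, 5.66% and 15.1% in that order. A match of letters is a description and not evidence of binding. Sites spelled with other letters would be missed, so the absence of a match is not evidence against binding.

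Subfamily A transports lipids, and ABCA1, which loads cholesterol and phospholipid onto apolipoproteins, was the 1 of its 4 tested members that passed limma. ABCA1 (ENSG00000165029, chromosome 9, 104781002 to 104928237 on hg38, minus strand) stood at 4.61 and 4.78 FPKM at 0 Gy and at 7.36 and 7.52 at 30 Gy. Both 30 Gy values lie above both 0 Gy values, by far more than the replicates differ. Its mean rose 1.58-fold from 4.70 ± 0.122 to 7.44 ± 0.116 (SD, n = 2), a log2 change of 0.57 ± 0.07 (SE, adjusted p = 0.0105). Of the other 3 tested members, ABCA2, a lipid transporter of lysosomes and endosomes, had 7.50 and 7.43 FPKM at 0 Gy and 7.42 and 6.64 at 30 Gy. ABCA7, a phospholipid transporter, had 5.83 and 5.46, then 5.62 and 5.48. ABCA5 had 0.904 and 1.22 FPKM, then 1.06 and 0.917. The changes of these 3 did not pass (adjusted p = 0.524, 0.877 and 0.850). Their 95% intervals on the log2 scale were -0.28 to 0.13 for ABCA2, -0.21 to 0.17 for ABCA7 and -0.47 to 0.37 for ABCA5.

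Subfamily G contains ABCG1, a sterol exporter that passes cholesterol to lipoprotein particles, and the drug pump ABCG2. ABCG1 (ENSG00000160179, chromosome 21, 42199689 to 42297244, plus strand) had 1.40 and 1.54 FPKM at 0 Gy and 3.13 and 2.92 at 30 Gy, with no overlap. It rose 2.06-fold, from 1.47 ± 0.0983 to 3.02 ± 0.152 (SD, n = 2), the largest fold among the 24 tested members. Its log2 change was 0.71 ± 0.11 (SE, adjusted p = 0.0159) on the scale of the test, and 1.02 by limma's voom on recovered reads, which adds no FPKM to the value. The call on ABCG1 is lost when limma tests every gene above 0 (adjusted p = 0.0789). ABCG2, which exports drugs and urate, had 2.26 and 2.50 FPKM at 0 Gy and 1.49 and 2.08 at 30 Gy. Its groups did not overlap, but its 30 Gy libraries differed from each other by more than the gap between the groups, and the change did not pass (log2 change -0.28, 95% interval -0.66 to 0.09, adjusted p = 0.222). The 3 remaining members had few reads. ABCG5 and ABCG8, which overlap on opposite strands of chromosome 2 and form the sterol pump of gut and liver, had 0 to 1 and 0 to 5 reads per library, and ABCG4 had 0, 0, 0 and 6.

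Genes around ABCA1 and ABCG1 in the sterol efflux pathway were followed through a list of 15, of which 12 were tested, 2 rose and 1 fell. MYLIP, a target of the sterol-sensing receptor LXR that degrades the LDL receptor, rose from 3.96 and 4.33 FPKM to 6.57 and 5.76 (log2 change 0.48, adjusted p = 0.0292). RXRA, the partner receptor of LXR, fell from 10.2 and 10.8 to 8.13 and 7.31 (-0.40, adjusted p = 0.0316). Both calls are lost when the replicate number is a block (adjusted p = 0.0585 for MYLIP and 0.0596 for RXRA) and when every gene above 0 is tested (0.111 and 0.104), and that of RXRA also with eBayes without trend (0.0503). Of the LXR genes themselves, NR1H2 had a log2 change of 0.04, whose sign turns without 1 of the 30 Gy libraries, and NR1H3 one of -0.11 (adjusted p = 0.715 and 0.539). APOE, APOC1 and PLTP were under the filter. The median log2 change of the list was 0.02. With voom 5 of the 12 passed, 3 higher and 2 lower. Among them SCD was lower (215 and 222 FPKM, then 198 and 199, adjusted p = 0.0440) and LPCAT3 higher (3.66 and 3.25, then 4.53 and 4.50, adjusted p = 0.0495). Neither passed limma (adjusted p = 0.148 and 0.0690). SREBF1 was lower without overlap and passed neither limma nor voom (adjusted p = 0.243 and 0.0751).

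**Figure D1:**
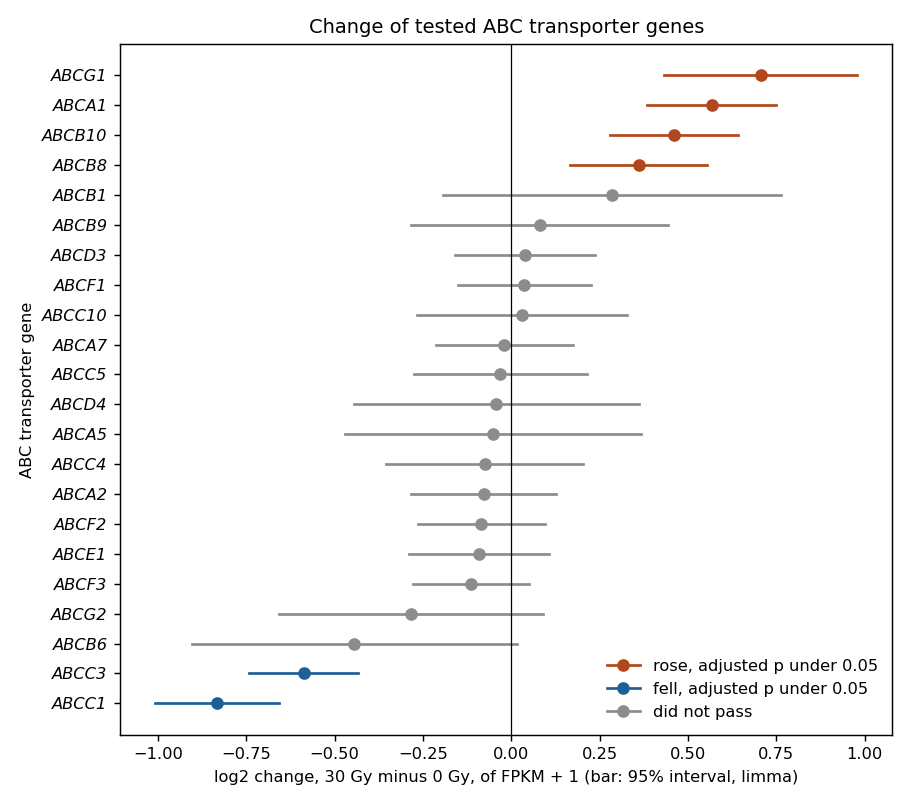
Log2 change (30 Gy minus 0 Gy, of FPKM + 1) of 22 of the 24 tested members, ordered by size; points are limma estimates, bars their 95% intervals without adjustment for many tests, and colour marks the genes that passed. ABCG1 (0.71) and ABCA1 (0.57) stand at the top and ABCC1 (-0.83) and ABCC3 (-0.59) at the bottom, and the wide bars of ABCB1 and ABCB6 span 0.

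Subfamily C held the largest summed level at 0 Gy, and its members ABCC1 and ABCC3 fell. ABCC1 (MRP1, ENSG00000103222, chromosome 16, 15949577 to 16143074, plus strand), which exports glutathione conjugates and many drugs, had 16.0 and 16.9 FPKM at 0 Gy and 8.97 and 8.60 at 30 Gy. Its groups were far apart, and the mean fell 1.87-fold from 16.4 ± 0.626 to 8.78 ± 0.265 (SD, n = 2), a log2 change of -0.83 ± 0.07 (SE, adjusted p = 0.00423). ABCC3 (MRP3, ENSG00000108846, chromosome 17, 50634777 to 50692252, plus strand), an exporter of glucuronides and bile salts, had 44.4 and 46.2 FPKM at 0 Gy and 30.2 and 29.4 at 30 Gy. It was the most abundant member in every library, above 91.9% of tested genes by its mean, and fell 1.52-fold from 45.3 ± 1.29 to 29.8 ± 0.605, a log2 change of -0.59 ± 0.06 (adjusted p = 0.00661). ABCC1 and ABCC3 passed in each of the 9 alternative fits that kept all libraries.

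The 3 other tested members of subfamily C did not pass. ABCC4, which exports cyclic nucleotides and prostanoids, had 6.49 and 7.68 FPKM at 0 Gy and 6.23 and 7.09 at 30 Gy. ABCC5, an exporter of nucleotide analogues, had 3.25 and 3.43, then 3.45 and 3.05. ABCC10 had 3.55 and 3.19, then 3.83 and 3.12. In all 3 the groups overlapped. The 95% intervals of the log2 change ran from -0.35 to 0.20 for ABCC4, from -0.28 to 0.21 for ABCC5 and from -0.27 to 0.33 for ABCC10. ABCC2 (MRP2), which exports conjugates from the apical face of liver and kidney cells, was under the filter with 36 and 73 reads at 0 Gy and 41 and 42 at 30 Gy. At its highest, 0.548 FPKM, it lay far below ABCC3.

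ABCC1 and ABCC6 lie tail to tail on chromosome 16 with 5853 bases between their ends, and their levels differed widely. ABCC6, an exporter of liver cells that releases ATP, had 13 and 12 reads at 0 Gy and 1 and 5 at 30 Gy, against 1036 to 2172 for ABCC1. The ratio of summed ABCC6 reads, scaled to library totals, was 0.256 (95% interval 0.0859 to 0.639 from an exact binomial test, for counting error only). Its pseudogenes ABCC6P1 and ABCC6P2 had 0 to 5 reads, and reads may have been split between these near copies. ABCC8 and ABCC9 are the regulatory subunits of ATP-sensitive potassium channels. ABCC8 had 3, 0, 0 and 0 reads. ABCC8 lies on the short arm of chromosome 11, where 19 of 21 tested genes within 2 Mb fell (median log2 change -0.99), but 3 reads allow no reading of its own change. ABCC9 had 10 and 24 reads at 0 Gy and 26 and 34 at 30 Gy, and the pore genes KCNJ8 and KCNJ11 stayed at or under 0.162 FPKM. ABCC11 and ABCC12, neighbours on chromosome 16, had 3 to 5 and 0 to 13 reads.

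Enzymes that make the substrates of the ABCC exporters were followed through a list of 22 conjugating enzymes, of which 15 were tested. GCLC, which starts glutathione synthesis, fell from 122 and 128 FPKM to 40.03 and 41.2 (log2 change -1.60, adjusted p = 0.000990), and GSTM3, a glutathione transferase, from 22.7 and 22.1 to 18.1 and 17.4 (-0.32, adjusted p = 0.0271). GSS, which completes glutathione, rose from 13.4 and 12.2 to 16.9 and 16.5 (0.36, adjusted p = 0.0306). The calls on GSTM3 and GSS are lost with eBayes without trend (adjusted p = 0.0524 and 0.0533) and with no filter (0.0667 and 0.0915). The other 12 did not pass limma, and the median change was -0.03. Of the 15, 7 had an unadjusted p under 0.05. With voom 5 of the 15 passed, 1 higher and 4 lower. The glucuronide-forming UGT1A1 and UGT2B7 had 0 reads in all libraries. Of 7 sensors of drugs and electrophiles, 4 were tested. AHR, the dioxin receptor, fell from 45.6 and 51.3 to 37.1 and 38.6 (-0.35, adjusted p = 0.0405), and KEAP1, the NRF2 inhibitor, from 42.6 and 41.3 to 34.6 and 34.0 (-0.28, adjusted p = 0.0311). These calls are lost with eBayes without trend (adjusted p = 0.0720 for AHR and 0.0648 for KEAP1) and with no filter (0.128 and 0.0697), and that of KEAP1 also with the replicate block (0.0541). NFE2L2, which encodes NRF2, had a change of 0.05 (adjusted p = 0.663). The drug receptors NR1I2 and NR1I3 stayed at or under 0.0951 FPKM. Of 12 organic anion uptake carriers, 4 were tested and 0 passed limma. At an unadjusted p under 0.05 was 1, which also passed with voom, but it reached FPKM 1 only at 0 Gy, where it is high. The most abundant were SLCO3A1 (3.10 to 3.60 FPKM) and SLCO4A1 (1.92 to 2.74).

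**Figure D2:**
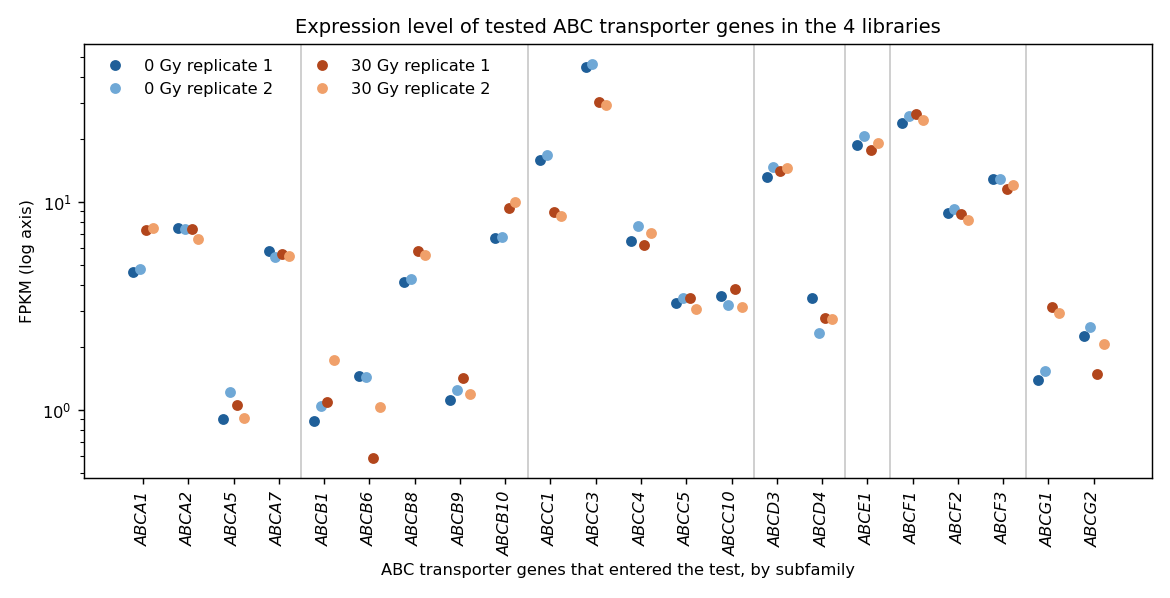
FPKM (log axis) of 22 of the 24 tested members in each of the 4 libraries, grouped by subfamily from A to G; blue points are 0 Gy and orange points 30 Gy libraries. ABCC3 is the highest gene in every library (29.4 to 46.2), and the blue and orange points of ABCC1, ABCC3, ABCA1 and ABCG1 are clearly apart.

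Subfamily B includes the best known drug pump and several transporters of organelles, of which ABCB10 and ABCB8 rose. ABCB10 (ENSG00000135776, chromosome 1, 229516582 to 229558695, minus strand), an inner-membrane mitochondrial transporter needed for haem synthesis, had 6.74 and 6.80 FPKM at 0 Gy and 9.38 and 10.01 at 30 Gy. It rose 1.43-fold, from 6.77 ± 0.0451 to 9.69 ± 0.451 (SD, n = 2), with a log2 change of 0.46 ± 0.07 (SE, adjusted p = 0.0165). ABCB8 (ENSG00000197150, chromosome 7, 151028422 to 151047782, plus strand), a mitochondrial transporter linked to iron export and potassium channels, had 4.13 and 4.27 FPKM at 0 Gy and 5.79 and 5.56 at 30 Gy. It rose 1.35-fold from 4.201 ± 0.101 to 5.68 ± 0.162, with a log2 change of 0.36 ± 0.08 (adjusted p = 0.0332). The call on ABCB8 is lost when the replicate number is added as a block (adjusted p = 0.0629) and when every gene above 0 is tested (0.0959). The call on ABCB10 is also lost when every gene above 0 is tested (adjusted p = 0.0605).

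ABCB6, a porphyrin transporter of outer mitochondrial and other membranes, had 1.45 and 1.44 FPKM at 0 Gy and 0.586 and 1.03 at 30 Gy. Its groups did not overlap, yet the 30 Gy libraries were far apart, and its change did not pass (log2 change -0.44, 95% interval -0.90 to 0.02, adjusted p = 0.142). With voom on recovered reads, which called 31.6% of the same 13379 genes, ABCB6 passed (-0.90, adjusted p = 0.0197). A read-through gene, AC068946.2, covers 54.7% of the exon bases of ABCB6, so that reads on the shared exons may be missing from its count.

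Mitochondrial partners of ABCB6, ABCB8 and ABCB10 were a list of 17 genes of iron-sulfur and haem synthesis, of which 15 were tested, 0 rose and 1 fell. FECH, which inserts iron into haem, fell from 19.9 and 20.7 FPKM to 14.6 and 14.7 (log2 change -0.44, adjusted p = 0.0132). The median change of the list was -0.07.

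ABCB1 (P-glycoprotein, ENSG00000085563), the multidrug efflux pump, was close to the detection filter. It had 0.881 and 1.04 FPKM at 0 Gy (89 and 103 reads) and 1.09 and 1.73 at 30 Gy (101 and 160 reads). The groups did not overlap, but the first 30 Gy library lay close to the 0 Gy values and only the second was clearly higher. The change did not pass (log2 change 0.29, 95% interval -0.19 to 0.76, adjusted p = 0.324), and voom gave 0.50 (adjusted p = 0.149). Its neighbour ABCB4, the phosphatidylcholine transporter of bile, lies 23197 bases away on chromosome 7 and had 10 and 16 reads at 0 Gy and 4 and 4 at 30 Gy. ABCB9, a lysosomal peptide transporter, had 1.12 and 1.25 FPKM, then 1.43 and 1.20, and did not pass (adjusted p = 0.723). Exons of AC026362.1 on the opposite strand cover 20.7% of those of ABCB9, and whether the counting used strand is not given in the sources used here. ABCB11, the bile salt export pump, had 0 to 5 reads. ABCB5 had 0 reads in all 4 libraries, which allows up to 0.0188 to 0.0204 FPKM (3 reads).

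Family members that carry other names were examined as a list of 3. TAP1 and TAP2, which load antigenic peptides into the endoplasmic reticulum, had 6.48 and 6.87 FPKM and 2.19 and 2.96 FPKM at 0 Gy. At 30 Gy they had 6.84 and 7.35, and 2.81 and 3.11. Neither passed limma (adjusted p = 0.511 and 0.457), had an unadjusted p under 0.05 or passed with voom. CFTR, a chloride channel of the ABCC type, stayed at or under 0.0268 FPKM.

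Subfamily D moves fatty acids into peroxisomes and cobalamin out of lysosomes, and none of its 3 tested members passed limma. ABCD3, a peroxisomal transporter, had 13.2 and 14.7 FPKM, then 14.1 and 14.5, and ABCD4, the cobalamin transporter, 3.45 and 2.35, then 2.76 and 2.73. Their adjusted p were 0.760 and 0.877. ABCD2 had 14, 3, 3 and 18 reads, with replicates of one dose further apart than the doses.

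Of 14 peroxisomal import and beta-oxidation genes, 13 were tested, 2 rose and 1 fell. SLC27A4, a fatty acid transporter, rose from 8.0 and 8.08 FPKM to 14.2 and 12.6 (log2 change 0.67, adjusted p = 0.0101). PEX5, the receptor that brings enzymes into peroxisomes, fell from 12.1 and 12.3 to 10.2 and 9.46 (-0.28, adjusted p = 0.0494). The call on PEX5 is lost with pseudocount 0.1 (adjusted p = 0.0515), eBayes without trend (0.0754), the replicate block (0.0761) and no filter (0.112), and that on SLC27A4 with no filter (0.0550). Of 6 cobalamin partners of ABCD4, 5 were tested and 0 passed limma (2 at an unadjusted p under 0.05, and 1 with voom). MMADHC (48.5 to 50.4 FPKM) and CD320 (19.7 to 27.2) were the most abundant.

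Subfamilies E and F, which recycle ribosomes and regulate translation, had no member that passed. ABCE1, which splits ribosomes after termination, had 18.8 and 20.7 FPKM at 0 Gy and 17.8 and 19.1 at 30 Gy. ABCF1, an initiation factor partner, had 23.9 and 25.9, then 26.4 and 24.7. ABCF3 had 12.9 and 12.9, then 11.6 and 12.1, and ABCF2 had 8.87 and 9.20, then 8.71 and 8.22. None of ABCE1, ABCF1, ABCF3 and ABCF2 passed limma (adjusted p = 0.439, 0.754, 0.259 and 0.432) or voom, or had an unadjusted p under 0.05, and all their 95% intervals lay between -0.29 and 0.23 on the log2 scale. A second gene model, AC021097.2, covers 45.8% of the exon bases of ABCF2 and was listed at 0 reads. Of 12 partners in ribosome recycling and GCN2 signalling, all tested, 1 rose and 1 fell. HBS1L, which rescues stalled ribosomes, rose from 3.55 and 3.56 FPKM to 4.85 and 4.83 (log2 change 0.36, adjusted p = 0.0346), and GCN1, the activator of GCN2, fell from 37.5 and 40.4 to 30.6 and 30.5 (-0.34, adjusted p = 0.0270). With no filter both calls are lost (adjusted p = 0.0989 for HBS1L and 0.0809 for GCN1), as is that of HBS1L with the replicate block (0.0654) and that of GCN1 with eBayes without trend (0.0542).

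**Figure D3:**
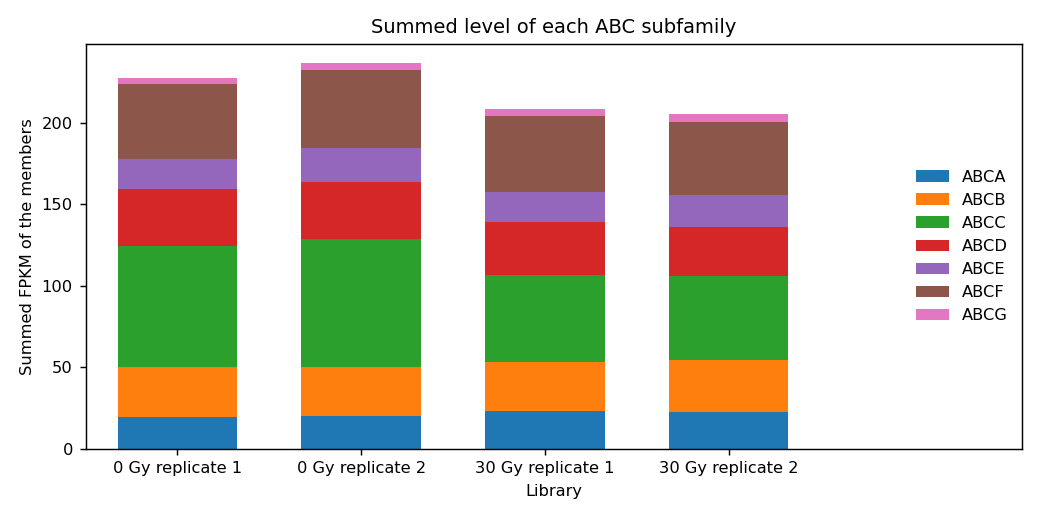
Summed FPKM of the members of each subfamily, stacked, in the 4 libraries (linear axis from 0). The ABCC block shrinks from 76.1 on average at 0 Gy to 52.6 at 30 Gy, while the ABCE and ABCF blocks stay nearly level.

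The summed level of the 45 members was 227 and 236 FPKM at 0 Gy and 209 and 205 at 30 Gy. Subfamily C carried 32.8% ± 0.327 of it at 0 Gy and 25.4% ± 0.244 at 30 Gy (SD, n = 2). The sum of subfamily C was 76.1 ± 2.86 FPKM and 52.6 ± 1.06, and ABCC3 and ABCC1 made up most of the gap. Subfamily A was at 19.8 ± 0.0773 and 22.7 ± 0.321 FPKM, subfamily B at 30.4 ± 0.0227 and 31.0 ± 1.04, and subfamily G at 3.87 ± 0.274 and 4.85 ± 0.326. These sums carry no test.

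Among the 21 members under the filter, ABCA10 and ABCC2 exceeded 0.3 FPKM in any library, and the other 19 did not. ABCA10 had 93 and 105 reads at 0 Gy and 117 and 164 at 30 Gy, up to 1.23 FPKM. It shares 318 exon bases with ABCA5, so that some of its reads may be ambiguous. To reach these genes, voom was also run on all genes with 10 or more reads in 2 or more libraries, an alternative added after the data were seen, which called 28.7% of 16446 genes. It covered 8 of the 21 and called 1 of them, ABCA13. ABCA13 (chromosome 7, 48171458 to 48647496, plus strand), with 19074 exon bases the longest member, had 13 and 10 reads at 0 Gy and 70 and 78 at 30 Gy. It was 6.96-fold higher in mean FPKM (0.0350 ± 0.00588 to 0.243 ± 0.0192, SD, n = 2), with a voom log2 change of 2.74 ± 0.47 (SE, adjusted p = 0.000159). ABCA13 was singled out after its values were seen, and even at 30 Gy its level was low.

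The remaining low members gave little more than presence or absence. ABCA8, of the chromosome 17 cluster that also holds ABCA5, ABCA6, ABCA9 and ABCA10, had 1 and 0 reads at 0 Gy and 10 and 7 at 30 Gy, a ratio of 18.1 (95% interval 2.84 to 758, for counting error only). ABCA6 and ABCA9 of the same cluster had 0 to 6 and 0 to 3 reads, so within this row of genes reads came almost only from ABCA5 and ABCA10. ABCA3, the surfactant lipid transporter of alveolar type II cells, had 6 and 4 reads, then 9 and 18. ABCA12, the keratinocyte lipid transporter, had 25 and 16, then 25 and 23. ABCA4, the retinal transporter, had 3 to 9 reads. The interval of the read ratio, again for counting error only, also excluded 1 for ABCA3 (1.35 to 6.67), ABCB4 (0.1285 to 0.747) and ABCC9 (1.22 to 2.96). It included 1 for ABCA4, ABCA12 and ABCC2, among others. ABCC8, ABCA9, ABCB5 and ABCG5 never exceeded 3 reads in any library, so no change could be detected in them at this depth.

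**Figure D4:**
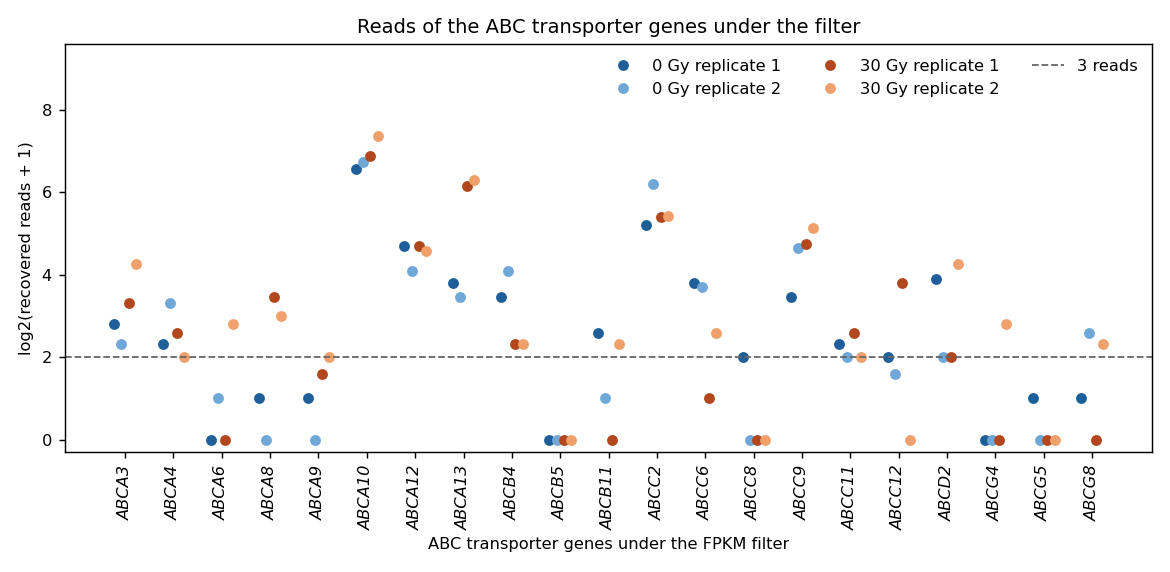
Recovered reads, as log2(reads + 1), of the 21 members under the FPKM filter in each library; the dashed line marks 3 reads. ABCA10, ABCC2 and, at 30 Gy, ABCA13 stand highest, and the orange points of ABCA13 (70 and 78 reads) lie well above the blue ones (13 and 10).

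Levels of the changed members were also set beside those of their chromosomal neighbours. Within 2 Mb of ABCC1, 3 of 21 tested genes rose and 0 fell (median log2 change -0.08), and around ABCC3 5 of 36 rose and 3 fell (-0.04). Around ABCG1 the median was -0.06 over 22 genes, around ABCB10 -0.07 over 32 and around ABCB8 -0.07 over 36. ABCA1 had 6 tested neighbours with a median of 0.18, 1 of which rose.

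**Figure D5:**
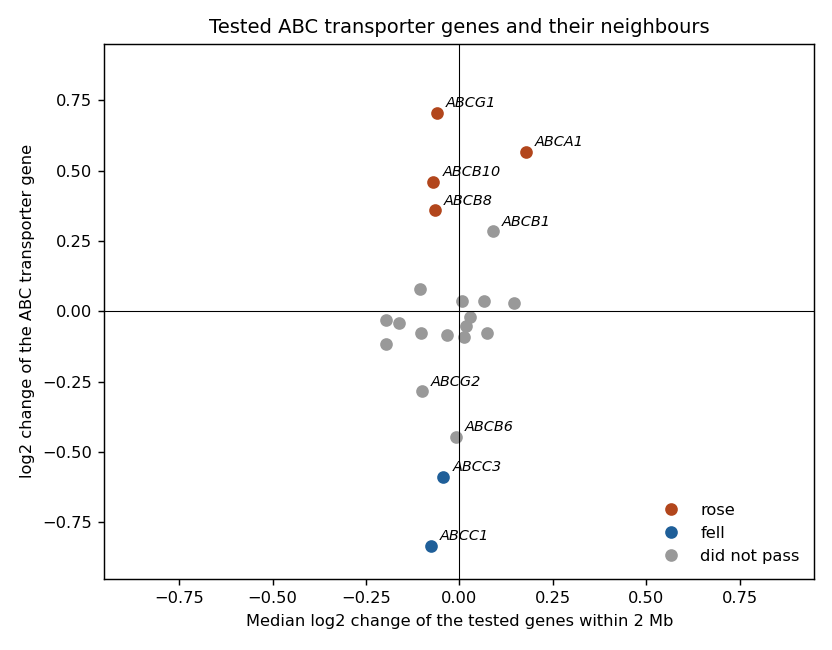
Log2 change of 22 of the 24 tested members against the median log2 change of the tested genes within 2 Mb of it; colour marks the members that rose or fell. ABCC1, ABCC3, ABCG1, ABCB10 and ABCB8 lie far from 0 with neighbours near 0, and ABCA1 lies at a neighbour median of 0.18.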

How the data were processed

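RNA was extracted with Trizol and 0.2 ug per library entered an Illumina preparation, per the labels' protocols. The authors deposited one table of FPKM values with gene positions and lengths. The submitters' processing notes name hg38. Aligner, counter and strandedness were not given in the sources used here. The 45 members sit at the same positions in GENCODE v29 on GRCh38, and their deposited lengths equal the union of their exons. FPKM times length gave whole reads for 100% of values above 0 in every library (tolerance 0.001). These reads served for depth, for floors (3 reads, counting error only) and for voom.

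A gene entered the test when 2 or more libraries reached FPKM 1. The test was limma 3.58.1 in R 4.3.3 on log2(FPKM + 1), two-sided, using lmFit and eBayes with trend, 30 Gy minus 0 Gy, with no scaling or covariate and Benjamini-Hochberg adjustment over all 13379 genes at 0.05. This scale understates changes of low genes. Fold differences are ratios of mean FPKM. The fit had 2 residual and 2.98 prior degrees of freedom; a permutation test of 2 against 2 cannot go below p = 0.333 and was not used. The fits were also run on simulated reads with an assumed spread. With changed genes present there, the share of limma calls that fell on unchanged genes was above the threshold of 0.05.

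Tested members are named, as are members under the filter that reach 0.3 FPKM, others by their reads, and up to 4 called genes of each of 10 pathway lists (up to 2 if none passed). A few genes, 2 tested members among them, are not reported here. Members and lists were chosen with earlier results of these data known. Alternatives were pseudocount 0.1, a minimum of FPKM 5, no filter, quantile normalization, median centring, eBayes without trend, a replicate block, each library left out, and voom on recovered reads.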

Additional observations from a re-analysis of the deposited data

How the results depend on the processing

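Of the 24 tested transporters, 7 passed in the main test and also with pseudocount 0.1, median centring, quantile normalization and eBayes without trend. At a filter of FPKM 5, 6 of 15 members and 2620 of 7734 genes in all passed, and ABCG1 was not tested. On recovered reads, voom called 9 of the 24, among them ABCB6, against 31.6% of all genes tested. Testing every gene above 0 called 3 of 44 members (ABCC1, ABCC3 and ABCA1) and 604 genes in all, against 2654 in the main test; that test covers more genes. voom called 4231 genes, and 4717 among genes with at least 10 reads in at least 2 libraries. Leaving out 1 library gave 0 to 2 called members and 0 to 898 called genes; the group that loses a library is then assumed to vary like the other. Of the called pathway genes named in the text, leaving out any 1 library ended every call except those of GCLC and SLC27A4 without either 30 Gy library. With the replicate number as a block, 6 members passed (ABCB8 did not) and 1926 genes in all. Same-numbered libraries did not deviate together (r = -0.03 over 13379 genes), so the numbers were not taken as pairs. Signs of uncalled genes turned when a library was left out: ABCF1 ranged from -0.0179 to 0.0915 on the log2 scale, ABCD3 from -0.0355 to 0.111, ABCC4 from -0.182 to 0.0307, ABCA7 from -0.0606 to 0.0207, ABCC10 from -0.0847 to 0.145, ABCC5 from -0.0993 to 0.0365, ABCD4 from -0.247 to 0.163, ABCA5 from -0.164 to 0.0608, MMADHC from -0.0376 to 0.0169, NFE2L2 from -0.0298 to 0.132 and NR1H2 from -0.0126 to 0.0884. The 7 called members kept their direction in every alternative. Depth limits the 21 transporters under the filter, for which a few reads decide the value.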
